A study of Mus musculus with 2 samples.

Results

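The 10 genes described here encode surface proteins by which satellite cells, the muscle stem cells under the basal lamina of the myofibre, are defined or sorted. They were Cd34, Vcam1, Cxcr4, Calcr, Sdc3, Sdc4, Ncam1, Cd82 and Megf10 as positive markers and Ly6a as the negative one, chosen by name and found through their Ensembl mouse gene identifiers. Of the 10, 9 were found among the 16190 genes of the count table. Calcr, the calcitonin receptor gene, was not analysed here.

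RNA came from cells labelled satellite cells from the tibialis anterior muscle of C57BL/6 mice, with 1 library per genotype. One library came from Cipc-flox/flox mice, called the control here, with floxed Cipc alleles (titled Cipc+/+), and the other from Cipc-scko mice (titled Cipc-/-), in which the series title places a deletion of Cipc in satellite cells. Cipc encodes a repressor of the circadian factors CLOCK and BMAL1. The series title also names mdx mice, a model without dystrophin, but the labels of these samples do not give that allele. The Cre driver, the age and sex of the mice, the number of animals behind a library and the way the cells were isolated are not stated in the sources used here. Any sort or gate could set the level of a sorting marker, and its part was not tested.

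Muscle stem cells are usually purified by combining a few surface proteins. Common schemes keep cells with integrin alpha 7 and CD34, with VCAM-1, with integrin beta 1 and CXCR4, or with syndecan 4. They remove blood cells by CD45, endothelial cells by CD31, and both these and fibro-adipogenic cells by Sca-1, the product of Ly6a. These proteins also act in the niche, as adhesion molecules (VCAM-1, NCAM), co-receptors that carry heparan sulfate chains (the syndecans), a chemokine receptor (CXCR4) and an organiser of membrane domains (the tetraspanin CD82).

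The libraries had totals of 16830168 counts (Cipc-scko) and 16145870 counts (Cipc-flox/flox). With 1 library per genotype there is no replicate check and no test: every value describes these libraries. Each 95% interval covers at most the error of counting, not variation between animals. It treats reads as independent molecules, which cannot be checked without molecular identifiers, so it may be too narrow even for counting error. Cipc itself had 594 counts in Cipc-scko and 1907 in the control, or -1.61 (-1.74 to -1.47) as the log2 ratio of Cipc-scko over control. Sex-linked genes also differed (Xist 4 and 3898 counts, Ddx3y 511 and 0, Cipc-scko first), so sex and genotype cannot be told apart. A gene was called higher or lower in Cipc-scko when it differed at least 2-fold and its counting interval excluded equality. In bulk RNA, fewer cells of a type and less RNA per cell cannot be told apart.

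As a check of the cell label, Itga7 (integrin alpha 7) had 21804 and 18326 counts and Cdh15 (M-cadherin) 8514 and 7000, Cipc-scko first. Both surface genes of the myogenic lineage were thus abundant in either library. Pax7, the transcription factor that defines satellite cells, had 998 counts in Cipc-scko and only 43 in the control. Myod1, which commits cells to myogenesis, had 19132 and 1916 counts, and Myog, which drives differentiation, 44286 and 53. Myf5 was nearly equal at 1062 and 1042 counts, and Pax3 was scarce at 23 and 3. The label therefore rests on Itga7, Cdh15, Myf5 and Myod1 more than on Pax7 in the Cipc-flox/flox library. These 5 transcription factor genes had 4 called higher, beside 21.2% of all genes past the filter described below, with a median of 3.40 (log2).

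Among the 9 surface markers, Sdc3, Ncam1 and Cxcr4 were called higher in Cipc-scko, and Cd34 and Megf10 lower. Vcam1, Cd82, Sdc4 and Ly6a were not called. All 9 passed the filter on low counts (1 CPM, a count per 1000000 scaled counts, or more in either library, and 20 counts or more in their sum). The 3 called higher compare with 21.2% of all 12874 genes past the filter, and the 2 called lower with 15.9%. In either direction 37.2% of all genes were called, and the 5 of 9 members are given beside that share as a description only. The counts called in each list below are to be read beside the same shares. The median log2 ratio of the members was 0.93, against 0.01 over all genes past the filter. With a limit of 1.5-fold 8 members were called, 5 higher and 3 lower, beside 54.8%, 29.0% and 25.8% of all genes. With a limit of 4-fold 4 were called, 2 each way, beside 19.2% in all, 12.5% higher and 6.68% lower. The members differed from each other in direction and size, from 116-fold lower (Cd34, on 3 counts in Cipc-scko) to 60.6-fold higher (Sdc3).

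**Figure D1:**
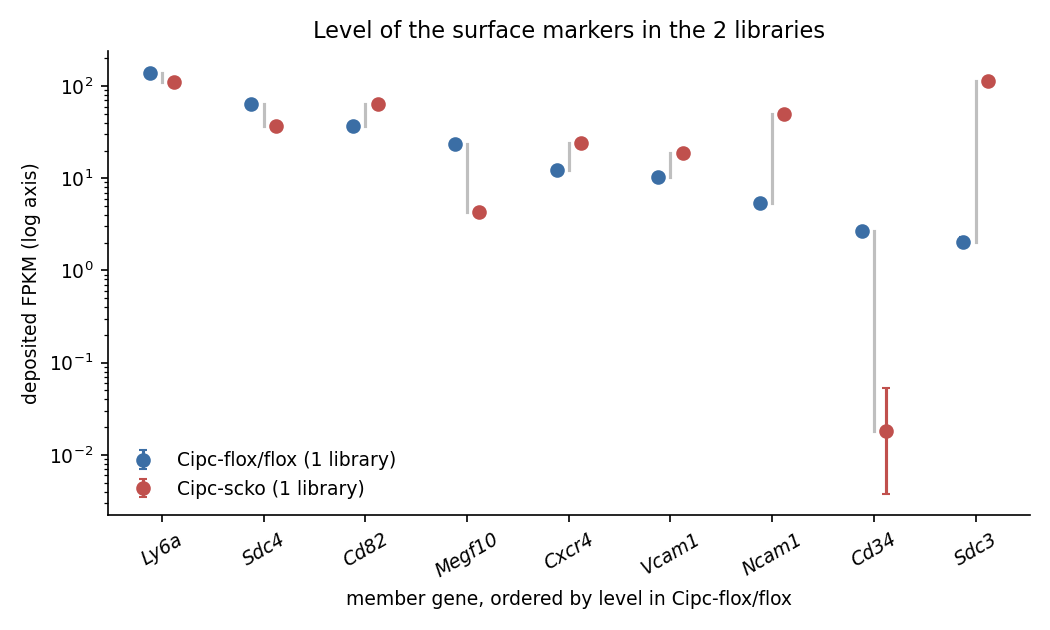
Deposited FPKM (fragments scaled to gene length and library depth, log axis) of the 9 markers in the Cipc-flox/flox (blue) and Cipc-scko (red) libraries, 1 library each, ordered by level in Cipc-flox/flox. Bars are 95% counting intervals, most of them smaller than the points, and grey lines join the libraries. Ly6a is at the top at 139 and 112 FPKM, while Sdc3 goes from 2.03 to 112 FPKM and Cd34 from 2.69 to 0.0181 FPKM.

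The promoters of the 2 members at the ends of this range, Sdc3 and Cd34, are shown because they also differ in kind. Each is the 250 bases before the RefSeq start on the plus strand of GRCm38.p6, with CG dinucleotides in capitals: chr4:130792287-130792536 for Sdc3 and chr1:194938571-194938820 for Cd34.
Sdc3: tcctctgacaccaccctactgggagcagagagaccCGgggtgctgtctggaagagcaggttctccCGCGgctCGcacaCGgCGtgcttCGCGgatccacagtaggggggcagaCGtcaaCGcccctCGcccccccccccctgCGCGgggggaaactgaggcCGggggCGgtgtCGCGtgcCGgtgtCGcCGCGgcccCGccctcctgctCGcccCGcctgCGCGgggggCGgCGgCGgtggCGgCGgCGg
Cd34: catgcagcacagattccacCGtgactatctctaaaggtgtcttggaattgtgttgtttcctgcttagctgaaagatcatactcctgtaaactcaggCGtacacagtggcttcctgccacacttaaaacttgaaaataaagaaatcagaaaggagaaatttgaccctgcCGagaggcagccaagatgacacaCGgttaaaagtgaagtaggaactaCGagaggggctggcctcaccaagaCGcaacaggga
The Sdc3 window held 32 CG dinucleotides and 76.4% G or C. In Cd34 the same length held 6 and 46.4%. Over 32851 windows of this length before RefSeq starts the median was 6 CG dinucleotides, and 4.58% of windows had at least as many as Sdc3. Neither window contained the E-box CACGTG, the word bound by CLOCK and BMAL1, nor any other CANNTG word, the type read by MYOD1. These words read the same on both strands, and every CACGTG is also a CANNTG. Of all windows, 6.02% held CACGTG and 66.2% held CANNTG. RefSeq windows were matched for 6 members. The single windows of Cxcr4 and Sdc4 had no CANNTG either, while 2 of 4 windows of Cd82 and 1 of 2 of Calcr held one, and none of these held CACGTG. These matches describe the letters of short windows only.

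Cd34 encodes a sialomucin that marks quiescent satellite cells in sorts with integrin alpha 7. The gene (ENSMUSG00000016494, chr1:194938819-194961279 on GRCm38) had 3 counts in Cipc-scko and 427 in the control, or 0.187 and 25.2 CPM. The Cipc-scko library was thus close to empty of Cd34 RNA, and even in Cipc-flox/flox the gene stood near the middle of the table, at or above 49.6% of genes by FPKM. The log2 ratio was -6.86 (-9.36 to -5.52), 116-fold lower (45.9 to 657), and 1.15% of tested genes had a ratio as low. The size rests on 3 counts: the log2 ratio was -5.70 with a prior count of 5, -4.56 from FPKM with a pseudocount of 0.1 and -1.86 with a pseudocount of 1. Its partner in the same sort, Itga7, did not differ 2-fold (log2 ratio 0.33).

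Members of the CD34 family did not all go the same way. Podxl, which encodes the related sialomucin podocalyxin, had 0 counts in Cipc-scko and 857 in the control, at least 271-fold lower (here and for other genes, such a bound sets a library at 0 to a floor of 3 counts). Podxl2, which encodes endoglycan, was higher in Cipc-scko, with 111 and 39 counts (1.57, 1.05 to 2.15). Of the 4 genes listed with this family and its ligand L-selectin, Cd34 included, 3 passed the filter. Of these, 1 was called higher and 2 lower, Cd34 and Podxl. The median of -6.86 is the ratio of Cd34 itself.

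Vcam1 encodes an adhesion molecule of the immunoglobulin family that binds integrin alpha 4 beta 1. It (ENSMUSG00000027962, chr3:116109949-116129688) had 3051 counts in Cipc-scko and 1615 in the control, or 190.0 and 95.4 CPM. Both libraries therefore held ample Vcam1 RNA, at or above 84.6% and 74.1% of genes by FPKM. Its log2 ratio was 0.99 (0.91 to 1.08), a 1.99-fold difference just short of a call.

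Partners of VCAM-1 went both ways. Itgb1, the beta 1 chain of its main receptor, had 14218 and 9203 counts (0.70) and was not called. Itga4, the alpha 4 chain, had 197 and 61 counts (1.76, 1.35 to 2.21). Itga9, another alpha chain that binds VCAM-1, had 271 and 0 counts, at least 95.2-fold higher in Cipc-scko. Itgb7, a beta chain that pairs with alpha 4 mainly on leukocytes, had 3 counts in Cipc-scko and 1761 in the control (-8.90, -11.40 to -7.57). Ezr, which encodes ezrin, a linker of membrane proteins to actin, had 177 and 7124 counts (-5.25, -5.48 to -5.04). Of 7 listed partners, 2 were called higher and 2 lower, with a median of 0.25.

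Cxcr4 encodes the receptor for the chemokine CXCL12. Counts for the gene (ENSMUSG00000045382, chr1:128588199-128592293) were 1095 in Cipc-scko and 537 in the control, or 68.2 and 31.7 CPM. On the log2 scale the ratio was 1.10 (0.95 to 1.26), 2.15-fold higher (1.94 to 2.39), a value just inside the call. With libraries scaled by total counts it was 0.97 and no longer called. Its sorting partner Itgb1, integrin beta 1, had 14218 and 9203 counts (0.70), which was not called.

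Cxcl12, the ligand, and Ackr3, a scavenger receptor for it, were both called lower in Cipc-scko. Cxcl12 had 126 and 393 counts (-1.56, -1.87 to -1.27), and Ackr3 768 and 1635 (-1.01, -1.14 to -0.89). Mif, a cytokine that also binds CXCR4, was abundant in both at 7245 and 9284 counts (-0.28). Cd74, the MHC class II invariant chain and a MIF receptor, had 3943 and 13 counts (8.27, 7.55 to 9.23). These 4 genes had 1 called higher and 2 lower, with a median of -0.65.

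Syndecans are transmembrane proteoglycans whose heparan sulfate chains bind growth factors such as FGF and HGF. Sdc3 (ENSMUSG00000025743, chr4:130792537-130826319) had 13201 counts in Cipc-scko and 229 in the control, or 822 and 13.5 CPM. It was the highest of the members by FPKM in Cipc-scko, at 112 (110.6 to 114), and the lowest in Cipc-flox/flox, at 2.03 (1.78 to 2.32). The log2 ratio was 5.92 (5.74 to 6.12), 60.6-fold higher (53.3 to 69.6), and 3.97% of tested genes had a ratio as high. Sdc4 (ENSMUSG00000017009, chr2:164424247-164443887) had 1799 and 2985 counts, or 112 and 176 CPM. Its log2 ratio of -0.65 (-0.74 to -0.57) pointed the other way and was not called.

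Seen as a family, the 4 syndecan genes differed in their proportions between the libraries. Sdc1 had 9855 counts in Cipc-scko and 3541 in the control (1.55), and Sdc2 1549 and 2621 (-0.68, -0.77 to -0.59). Summed FPKM of the family was 265 in Cipc-scko and 144 in the control. Of that sum, Sdc3 made up 42.4% in Cipc-scko and 1.42% in the control. Sdc4 made up 14.0% and 44.6%, Sdc2 9.31% and 30.3%, and Sdc1 34.3% and 23.7%. Sdc4 and Sdc2 thus led in Cipc-flox/flox, and Sdc3 and Sdc1 in Cipc-scko. With 2 called higher and 0 lower, the family's median log2 ratio was 0.45.

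Enzymes that build or edit heparan sulfate were mixed. Hs6st2, a 6-O-sulfotransferase, had 1185 counts in Cipc-scko and 0 in the control, at least 416-fold higher. Sulf2, an extracellular 6-O-endosulfatase that removes such groups, had 700 and 21 counts (5.10, 4.51 to 5.84). The chain polymerase gene Ext1 was lower, with 1719 and 4881 counts (-1.43, -1.51 to -1.35), as was the N-sulfotransferase gene Ndst1, with 1962 and 4193 (-1.02, -1.10 to -0.94). Of 16 such genes past the filter, 5 were called higher and 2 lower (median 0.72). With libraries scaled by total counts 3 were called higher, as Hs6st1 and B3galt6 no longer reached 2-fold.

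Ncam1 encodes the neural cell adhesion molecule, which in mouse muscle is known to appear as myogenic cells differentiate. Its counts (ENSMUSG00000039542, chr9:49502136-49798925) were 10490 in Cipc-scko and 1098 in the control, or 653 and 64.9 CPM. By FPKM the gene stood at place 7 of the 9 members in the control, at 5.38, and at place 4 in Cipc-scko, at 49.3. The log2 ratio was 3.33 (3.24 to 3.42), 10.1-fold higher (9.46 to 10.7), and 8.04% of tested genes had a ratio as high.

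Both genes for the enzymes that put polysialic acid on NCAM were higher too. St8sia2 had 1930 counts in Cipc-scko and 0 in the control, at least 678-fold higher, and St8sia4 had 380 and 10 (5.25, 4.43 to 6.40). Of the other genes in the list, 3 were called lower (L1cam, Gap43 and Nrcam), and Fyn (0.78) and Prnp (-0.13) were not called. L1cam, a related adhesion molecule, had 0 and 785 counts, at least 248-fold lower. Gap43, a growth cone protein through which NCAM can signal, had 0 and 382 counts, at least 121-fold lower. In this list of 8 genes past the filter, Ncam1 included, 3 were called higher and 3 lower (median 0.32). All 7 myofibre genes past the filter were also called higher (median 7.74 with genes at 0 set to their bound), beside 21.2% of all genes. Myh7 had 27995 and 0 counts, Myh1 502 and 0, Mb 4702 and 2, Tnnt3 10722 and 72, and Ckm 712 and 3. What part cells with these myofibre genes have in the Ncam1 value was not tested.

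Cd82 encodes a tetraspanin that gathers integrins and other receptors in the membrane. The gene (ENSMUSG00000027215, chr2:93419111-93463140) had 5507 counts in Cipc-scko and 3056 in the control, or 343 and 181 CPM. It held place 3 by FPKM among the members in both libraries, at 64.5 and 37.3. This gave a log2 ratio of 0.93 (0.86 to 0.99), 1.90-fold, short of a call. Among 14 tetraspanin genes past the filter, Cd82 included, 1 was called higher and 5 lower, with a median of -0.52. Tspan3 was the one higher (2863 and 1390 counts, 1.12), a call lost with libraries scaled by total counts (0.98), and Tspan5 (299 and 1421, -2.17) and Tspan7 (363 and 1545, -2.01) were the lowest.

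Megf10 encodes a transmembrane protein with EGF-like repeats that is known to act in satellite cell proliferation and to bind NOTCH1. It (ENSMUSG00000024593, chr18:57133090-57297467) had 569 counts in Cipc-scko and 2960 in the control, or 35.4 and 175 CPM. Its log2 ratio was -2.30 (-2.43 to -2.17), 4.93-fold lower (4.51 to 5.41), and 5.55% of tested genes had a ratio as low. Notch1 went the other way, with 2346 and 589 counts (2.07). Its relative Megf9 had 98 and 173 counts (-0.74) and was not called. The list of MEGF genes and partners, Megf10 included, had 1 gene called higher and 2 lower of 5. Its median of -0.74 turned to 0.94 without the filter on low counts.

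**Figure D2:**
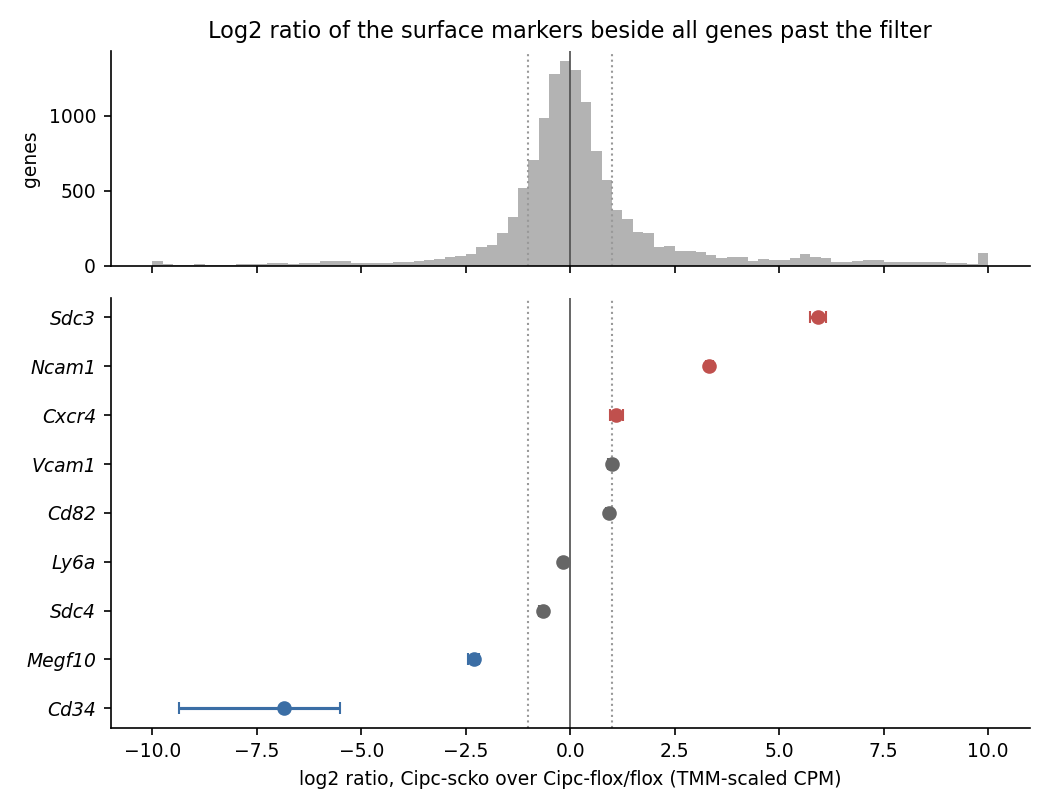
Upper panel: log2 ratio of Cipc-scko over control for all 12874 genes past the filter, with values beyond 10 drawn at the ends. Lower panel: the 9 markers with 95% counting intervals, red where called higher, blue where called lower and grey otherwise; dotted lines mark 2-fold. Sdc3 (5.92) and Ncam1 (3.33) lie in the right tail and Cd34 (-6.86) and Megf10 (-2.30) in the left, while Cxcr4, Vcam1 and Cd82 lie near the right dotted line.

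Ly6a, whose product Sca-1 is used to discard cells, was among the most abundant members. It (ENSMUSG00000075602, chr15:74994877-74998031) had 6500 counts in Cipc-scko and 7770 in the control, or 405 and 459 CPM. By FPKM it was the highest member in Cipc-flox/flox, at 139 (136 to 143), and in Cipc-scko its 112 (109 to 115) overlapped that of Sdc3. Ly6a lay at or above 97.4% of genes in Cipc-scko and 98.0% in the control. The log2 ratio was -0.18 (-0.23 to -0.13), the smallest difference of the 9 members, and it was not called.

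Of the Ly6 neighbours, Ly6c1 had 1337 and 2032 counts (-0.53), Ly6c2 21 and 196 (-3.12, -3.87 to -2.49) and Ly6e 1535 and 3491 (-1.11, -1.20 to -1.02). The 4 genes past the filter, Ly6a included, had 0 called higher and 2 lower (median -0.82). Chromosome 15, which carries the cluster, had a median log2 ratio of -0.68 over 520 genes past the filter, and the 25 such genes within 1 Mb of Ly6a had -0.40. For the other members' chromosomes the median lay between -0.12 and 0.25. The part of the chromosome in these values was not tested. None of the 9 members had another annotated gene with at least 95% identity over 80% of the shorter transcript. Ly6a came closest, with 85.6% identity to Ly6i over 804 bases, and Ly6i had 4 and 0 counts.

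Other cell types that carry Sca-1 were looked for through their markers. Of 8 endothelial genes 5 were in the table, with a summed level of 1.02 FPKM in Cipc-scko and 0.175 FPKM in the control. Pecam1, which encodes CD31, had 19 and 0 counts, and Kdr 112 and 2. For 10 macrophage genes, 7 in the table, the sums were 2.98 and 27.8 FPKM, carried by Cd68 (30 and 425 counts) and Cd14 (23 and 356). Csf1r went the other way, at 37 and 9 counts. Lyz2, C1qa, C1qb and Mrc1 had 10 counts or fewer in either library. Of the 3 macrophage genes past the filter, 1 was called higher and 2 lower. The other 3 genes of each list were not analysed here.

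Fibro-adipogenic cells are another Sca-1 population. Their receptor gene Pdgfra had 11 counts in Cipc-scko and 147 in the control, and Dcn 1 and 142. Thy1 had 12 and 0 counts. The 7 of 9 list genes in the table summed to 257 and 157 FPKM, nearly all from collagens, which myogenic cells can also express: Col1a1 at 61.7 and 17.5 FPKM, Col3a1 at 194 and 83.0, Col1a2 at 1.02 and 52.0. In that list 2 were called higher and 3 lower of 5 past the filter. Of the genes of negative sort markers 5 had a row, of which 1 was called higher and 2 lower of 3 past the filter. The median of that list was -3.61 and turned to 4.68 without the filter. What part other cells have in the Ly6a level was not tested.

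**Figure D3:**
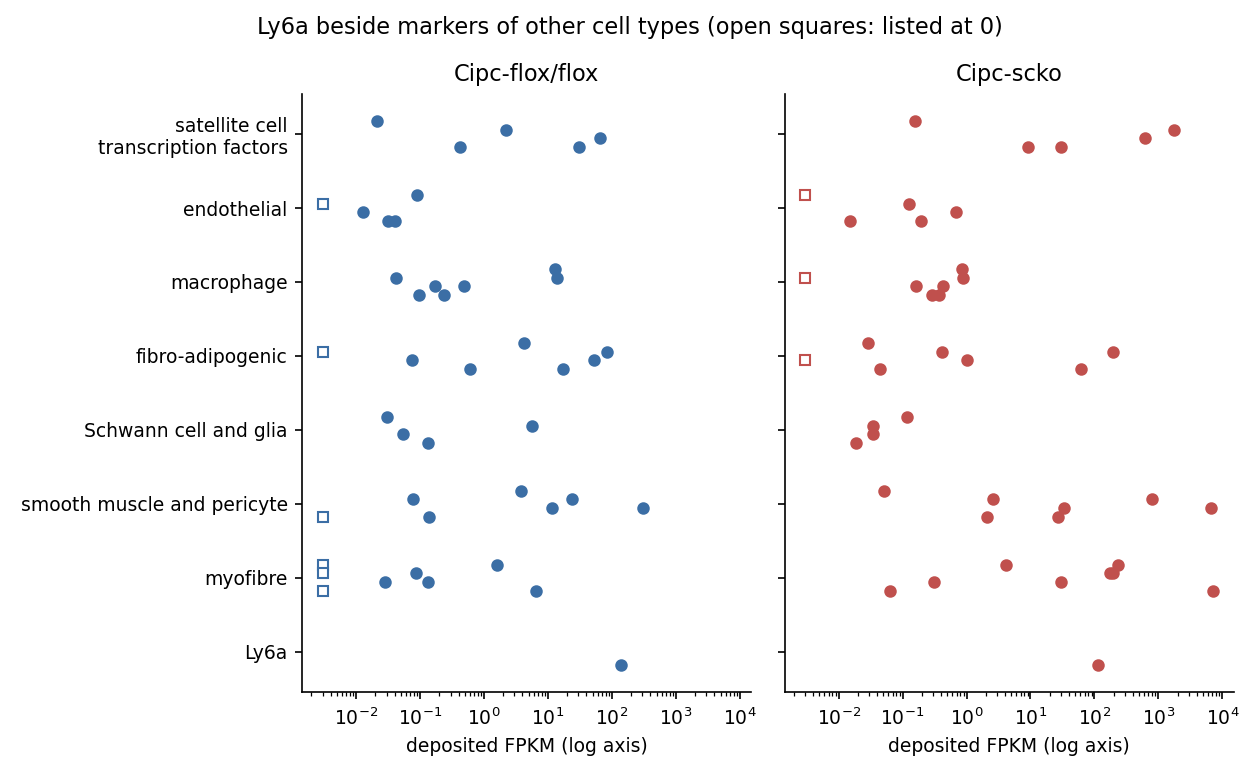
Deposited FPKM (log axis) of Ly6a and of the marker genes of satellite cells and other cell types, 1 point per gene, in the Cipc-flox/flox (left) and Cipc-scko (right) libraries. Open squares at the left edge are genes listed at 0. Ly6a, at 139 and 112 FPKM, has a higher level than each endothelial and macrophage gene shown and a lower one than Acta2 in both libraries (302 and 6658). In Cipc-scko it is also lower than Col3a1 (194), Tagln (794), Myod1 (613), Myog (1760) and several myofibre genes, among them Tnnt3 (232), Mb (198) and Myh7 (173). The myofibre genes shift to the right in Cipc-scko.

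Smooth muscle and pericyte genes, 7 in the table, summed to 7517 FPKM in Cipc-scko and 341 in the control. Most came from Acta2 (6658 and 302 FPKM) and Tagln (794 and 23.7 FPKM). Myofibre genes were also called higher in Cipc-scko, and which cells the Acta2 and Tagln RNA came from was not tested. Of the 7, 6 were called higher and 1 lower (median 4.98). Mcam, which encodes CD146, had 2433 and 12 counts, Abcc9 357 and 0 and Pdgfrb 4267 and 1420. Cspg4, which encodes the NG2 proteoglycan, had 7 and 491. Schwann cell and glia genes, 4 in the table, summed to 0.203 and 5.79 FPKM, with Ngfr at 2 and 310 counts. NCAM, CXCR4 and VCAM-1 also occur on cells of these kinds, and the part of such cells in the members' values was not tested.

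Although Calcr itself was not analysed, its known partners were. Genes of the RAMP proteins, which alter ligand choice of calcitonin-type receptors, split: Ramp1 had 308 and 5 counts (5.88, 4.78 to 7.65) and Ramp3 70 and 0, at least 24.6-fold higher in Cipc-scko, but Ramp2 had 26 and 168 (-2.59, -3.27 to -2.01). Calcrl, the related receptor, had 56 and 121 counts (-1.03, -1.52 to -0.57), and the peptide gene Calcb 0 and 52, at least 16.4-fold lower. Collagen V, a ligand by which satellite cells are known to keep the calcitonin receptor active, was called higher for 2 of its 3 chain genes, Col5a1 (25829 and 3825 counts, 2.83) and Col5a2 (19415 and 5476, 1.90), and not for Col5a3 (1366 and 834, 0.79). These 8 genes had 4 called higher and 3 lower (median 1.34).

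Surface genes of satellite cells outside the 10 went both ways as well. Of 19 past the filter, 7 were called higher and 4 lower (median 0.70). Fgfr4, an FGF receptor, had 4780 counts in Cipc-scko and 0 in the control, at least 1679.8-fold higher. Cdon, a co-receptor that promotes myogenesis, had 8901 and 1423 (2.72, 2.64 to 2.80). Met, the HGF receptor, had 337 and 1801 (-2.34, -2.51 to -2.17), and the hyaluronan receptor Cd44 2778 and 10781 (-1.88, -1.94 to -1.82). Among receptors and adhesion genes, Fgfr4 and Cdon thus lay on the side of Sdc3 and Ncam1, and Met and Cd44 on that of Cd34 and Megf10.

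In order of FPKM, Cipc-flox/flox ran Ly6a, Sdc4, Cd82, Megf10, Cxcr4, Vcam1, Ncam1, Cd34, Sdc3, and no neighbours in that order overlapped in their counting intervals. Cipc-scko ran Sdc3, Ly6a, Cd82, Ncam1, Sdc4, Cxcr4, Vcam1, Megf10, Cd34, with Sdc3 and Ly6a overlapping. Annotated antisense genes share between 48 and 417 exon bases with Cd34, Ncam1, Sdc3 and Vcam1. Whether counting used strand is not given in the sources used here, so reads within these shared bases cannot be told from antisense reads. The longest coding transcripts of the 4 members have 2554, 6564, 4973 and 3469 bases, in the same order.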

How the data were processed

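Total RNA of 2 libraries was analysed, 1 per genotype. Raw counts for each Ensembl gene, in whole numbers, and FPKM in a file per library were deposited, per the file headers. The build GRCm38 and the tools StringTie 1.3.0, HISAT2 2.0.4 and CASAVA appear in the submitters' processing notes; their roles, the annotation, filters and strand setting are not stated in the sources used here. Over 6375 genes with at least 1000 counts, FPKM ratios equalled ratios of counts per total within 0.9997 to 1.0002, so the deposited FPKM are the counts rescaled and served only to compare levels between genes and as an alternative.

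Counts were scaled over the whole table with TMM (edgeR 4.0.16, R 4.3.3) and given as CPM. Log2 ratios used a prior count of 0.5, and 95% intervals are exact binomial (Clopper-Pearson) intervals of a gene's split between libraries. Intervals of FPKM are exact Poisson intervals of the counts. A gene at 0 was bounded against 3 counts in that library. The filter kept genes that reached 1 CPM in either library and 20 counts in the sum. No p-value was computed, since single libraries leave no residual degrees of freedom. The calling rule was tried on simulated Poisson counts at the depth of these libraries, with the scaling taken as known. Such counts hold no variation between animals, so the trial cannot show how the calls perform in these data.

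Symbols and positions came from GENCODE vM21 (GRCm38), which matched 16116 of 16190 identifiers. Copies were searched with BLAST+ 2.17.0. Some listed genes are not reported here. The members and lists were chosen with earlier results of these data known. Named were all members, the syndecan family and Cipc, and from each other list the 2 highest and 2 lowest ratios among genes with a CPM of at least 5 and genes at 0 in one library with at least 20 counts in the other. Itga7, Cdh15, Itgb1, Col5a2, Col5a3, Nrcam, Fyn, Prnp, Hs6st1, B3galt6, Pax3, Pecam1, Thy1, Pdgfra, Acta2, Tagln, Csf1r, Lyz2, C1qa, C1qb, Mrc1, Ly6i, Xist and Ddx3y were added outside that rule, after their values were seen. Alternatives were other scalings (totals, DESeq2 1.42.0 size factors, upper quartile, totals that leave out mitochondrial genes and the 10 with most counts), a prior count of 5, FPKM with pseudocounts of 0.1 and 1, other fold limits and other filters.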

Additional observations from a re-analysis of the deposited data

How the results depend on the processing

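None of the 63 alternative ratios of the 9 members (7 per member) changed sign. A change of sign was hardly possible, as the largest shift by a scaling was about -0.14 and the smallest member ratio -0.18 (Ly6a). Of the 63, 38 stayed within the counting interval of the reported ratio and 25 moved beyond it. That split depends on the width of the interval, which is greatest at few counts. Scaling by totals lowered the log2 ratio of every gene by about the same amount (-0.14), so that 50.8% of called genes were higher instead of 57.1%. The median of the members (0.93) became 0.79 with totals, 0.84 with totals that leave out mitochondrial genes and the 10 with most counts, 0.79 with FPKM and a pseudocount of 0.1, and 0.77 with a pseudocount of 1. Cxcr4 lost its call with totals and with both FPKM settings, and Vcam1 gained one with the upper quartile (1.03). The log2 ratio of Cd34 became -1.86 with FPKM and a pseudocount of 1, which by its construction shrinks low levels. A fold limit of 1.5 called 8 members, 5 of them higher, beside 29.0% of all genes called higher, as the lower limit lets more pass. Sdc3, Ncam1, Cd34 and Megf10 were called under all 11 alternatives. Dropping the filter or raising it to 5 CPM could not change a member's call, as every member exceeded 5 CPM in a library. The FPKM settings largely repeat scaling by totals, because the deposited FPKM are the counts rescaled. Among lists, 2 medians reversed: that of the genes of negative sort markers went from -3.61 to 4.68 and that of the MEGF family from -0.74 to 0.94 without the filter, which lets in genes of few counts. Members left out, the lists of families, partners, other surface genes, negative sort markers and satellite cell transcription factors held 89 genes past the filter. Of these, 55 were called, beside 37.2% of all genes past it. Their lists were chosen with earlier results known, so this is a description only. Under the 3 alternatives run on these genes, 52 were called with totals, 61 without the filter and 50 with a filter of 5 CPM. No paired analysis was possible because each genotype had 1 library, and for the same reason no replicate could be left out. Depth limits Cd34 in Cipc-scko, at 3 counts.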
